A study of Mus musculus with 60 samples.

Results

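The genes described here are 32 protein-coding genes of mouse sterol and fatty acid synthesis, chosen by name as genes of these pathways and not by any measured value. They are 32 of 21883 protein-coding genes on chromosomes 1 to 19, X and Y in RefSeq GRCm38.p6. They fall into 7 genes of the isoprenoid steps from acetyl-CoA to squalene and 10 genes of the steps from squalene to cholesterol. A further 5 are genes of the SREBP transcription factors and of the proteins that control them, called SREBP regulators below. The rest are 6 genes of fatty acid synthesis, and 4 genes of the liver X receptors (LXR) and of cholesterol efflux. The first 2 groups together are the 17 sterol synthesis genes.

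The tissue was the lumbar dorsal root ganglia of the sciatic nerve, which hold the cell bodies of its sensory neurons, taken from C57BL/6 mice aged 6 to 8 weeks. All mice had surgery, and ganglia were collected 24 hours later: sciatic nerve axotomy (SNA), its sham operation (Sham), axotomy of the spinal cord dorsal columns (DCA), or laminectomy alone (Lam). Each injury is set beside its own control surgery, and an unoperated group is not analysed here. ChIP-seq for H3K9ac, H3K27ac and H3K27me3 used 2 samples of 10 pooled mice for each mark and surgery, and ATAC-seq used 3 samples of 1 mouse for each surgery. The deposited data are 16 peak lists, 1 for each assay and surgery, each made from all replicates pooled. Values below therefore have no replicate error, carry no p-value, and compare lists rather than conditions. Runs of 4 values are in the order Sham, SNA, Lam and DCA unless the lists are named.

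Cholesterol and fatty acids are both built from acetyl-CoA. When sterols are low in the endoplasmic reticulum, SCAP escorts the SREBP precursors to the Golgi, and the released SREBP fragments bind sterol regulatory elements, usually beside a box for the factor NF-Y, in the promoters of the synthesis genes. INSIG proteins hold SCAP and SREBP back when sterols are high, and the LXR factors turn on export of cholesterol. In peripheral nerve the pathway is known for supplying myelin lipid, which Schwann cells make in large part themselves. H3K9ac and H3K27ac mark active promoters and enhancers, H3K27me3 marks repressed chromatin, and ATAC peaks mark DNA that a transposase can reach.

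The lists held between 43803 and 89647 peaks for the 2 acetylation marks, between 90011 and 154055 for H3K27me3, and between 153556 and 174605 for ATAC after repeated intervals were collapsed. Read depth is unknown. The H3K27ac lists differed in where their strongest peaks lay: 11.8% of the 5000 strongest were within 1 kb of a gene end in Sham, 21.8% in DCA, 38.6% in Lam and 59.0% in SNA. Of the H3K27me3 peaks, only 0.0478% to 1.31% had a q of 0.05 or less. Among markers of cell types, 8 of 8 sensory neuron markers had an ATAC peak at a gene end in all 4 lists, but only 1 or 2 of the 8 had an H3K9ac or H3K27ac peak there. For the markers of satellite glia and Schwann cells the counts were 4 to 6 of 8 for ATAC, 4 to 7 for H3K9ac and 4 to 7 for H3K27ac. Of all genes, 69.4% to 71.2% had such a peak for ATAC, 49.0% to 59.3% for H3K9ac and 40.3% to 50.9% for H3K27ac. For ATAC, 2 of 3 skeletal muscle markers and 3 or 4 of 5 adipocyte markers had one in each list. Such counts therefore cannot check the tissue label. Fewer cells of a type and less signal per cell cannot be told apart in whole ganglia.

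Promoter sequences are shown for the gene of each role group whose gene end held the strongest ATAC peak in the Sham list. For Hmgcs1, Msmo1, Insig1 and Acly that peak lies over the start, while for Nr1h2 it lies 0.42 to 0.56 kb beyond the other end of the gene, away from the letters shown. The stretches are the 250 bases before the RefSeq start, on the gene's strand, from the GRCm38.p6 promoter table. Capitals mark matches to CCAAT (the NF-Y box, read as ATTGG on the other strand), CACGTG (the E-box) and TCACNCCAC (a form of the sterol regulatory element), each searched on both strands. No marked match overlaps another.
Hmgcs1 (chr13:119690101-119690350, plus strand): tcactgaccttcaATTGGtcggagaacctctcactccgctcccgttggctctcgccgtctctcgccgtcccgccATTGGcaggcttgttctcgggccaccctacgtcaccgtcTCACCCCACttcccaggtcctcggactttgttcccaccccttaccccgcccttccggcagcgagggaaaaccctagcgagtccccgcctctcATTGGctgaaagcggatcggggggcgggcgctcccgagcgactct
Msmo1 (chr8:64733579-64733828, minus strand): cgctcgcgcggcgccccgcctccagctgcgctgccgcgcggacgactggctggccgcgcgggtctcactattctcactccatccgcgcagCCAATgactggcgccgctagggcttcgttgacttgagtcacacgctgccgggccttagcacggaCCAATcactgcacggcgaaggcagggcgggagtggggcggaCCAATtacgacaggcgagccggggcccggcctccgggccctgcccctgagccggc
Insig1 (chr5:28071162-28071411, plus strand): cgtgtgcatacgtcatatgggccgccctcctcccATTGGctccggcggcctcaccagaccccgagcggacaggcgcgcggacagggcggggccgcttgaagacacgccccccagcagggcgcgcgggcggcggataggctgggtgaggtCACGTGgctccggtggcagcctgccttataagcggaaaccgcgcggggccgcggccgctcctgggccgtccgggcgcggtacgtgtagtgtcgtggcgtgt
Acly (chr11:100528001-100528250, minus strand): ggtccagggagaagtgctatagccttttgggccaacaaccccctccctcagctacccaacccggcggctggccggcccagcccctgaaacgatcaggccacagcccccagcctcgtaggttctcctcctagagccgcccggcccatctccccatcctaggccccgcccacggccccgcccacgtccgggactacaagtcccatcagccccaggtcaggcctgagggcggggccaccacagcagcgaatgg
Nr1h2 (chr7:44553966-44554215, minus strand): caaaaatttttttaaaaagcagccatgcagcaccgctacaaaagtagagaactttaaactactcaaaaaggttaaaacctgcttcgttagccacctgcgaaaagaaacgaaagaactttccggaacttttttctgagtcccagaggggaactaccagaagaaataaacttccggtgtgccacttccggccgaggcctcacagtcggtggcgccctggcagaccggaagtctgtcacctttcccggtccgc
The Hmgcs1 stretch held the sterol element at position -137 from the start and CCAAT boxes at -237, -176 and -45, with 1 more at 10 in the gene. The Msmo1 stretch held CCAAT at -160, -96 and -55, and the Insig1 stretch held CCAAT at -216 and CACGTG at -101. In Acly the CCAAT match lay 37 bases into the gene, outside the bases shown, and the Nr1h2 window of 300 bases held none of these letters. An ATAC peak overlapped the 300-base promoter window of each of these 5 genes in all 4 lists, for Nr1h2 a weaker one, at −log10 p of 9.1, 10.4, 12.6 and 26.5 (the authors' values).

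RefSeq promoter windows of 300 bases were found for 26 of the 32 genes (35 windows). CCAAT occurred in 20 of the 26 (76.9%), against 42.3% of 17491 protein-coding genes in the table and 41.9% of the 10783 of them with an ATAC gene end peak in all 4 lists. It occurred in 9 genes of the squalene-to-cholesterol steps (Lss, Cyp51, Tm7sf2, Msmo1, Nsdhl, Hsd17b7, Ebp, Sc5d and Dhcr7), in 5 of the isoprenoid steps (Hmgcs1, Mvk, Pmvk, Mvd and Idi1), in Srebf1, Srebf2, Insig1 and Insig2, and in Acly and Fasn. No LXR or efflux gene with a window held it. CACGTG occurred in 6 of 26 (23.1%), against 8.91% of the protein-coding genes and 11.3% of those with an ATAC gene end peak in all 4 lists. These were Hsd17b7, Sc5d, Dhcr7, Scap, Insig1 and Abca1. The letters TCACNCCAC occurred in the Hmgcs1 window alone (3.85% of the genes, against 1.41% of protein-coding genes). A match is a match of letters and no sign of binding, and other forms of the sterol element were not searched. The median GC content was 62.3% over the windows of these genes and 52.7% over all windows in the table.

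Most of the 32 genes had open and acetylated chromatin at a gene end in all 4 surgeries. At gene ends (a peak within 1 kb of either end of the RefSeq gene), ATAC peaks were present for 31, 31, 30 and 32 genes, against 69.4% to 71.2% of all genes. H3K9ac peaks were present for 28, 30, 28 and 29 of the 32 in the same order, against 49.0% to 59.3% of all genes. H3K27ac peaks were present for 27, 30, 28 and 23, against 40.3% to 50.9%. In every one of these 12 narrow-peak lists, 21 genes (65.6%) had a gene end peak, against 27.5% of all genes. These 21 were Hmgcs1, Mvk, Mvd, Idi1, Fdps, Sqle, Cyp51, Tm7sf2, Msmo1, Sc5d, Dhcr7, Srebf2, Insig1, Acly, Fasn, Scd1, Scd2, Nr1h2, Nr1h3, Abca1 and Abcg1. Another gene's end lay within 1 kb of an end of 16 of the 32 genes, so a peak there can lie at a neighbour's end as well.

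**Figure D1:**
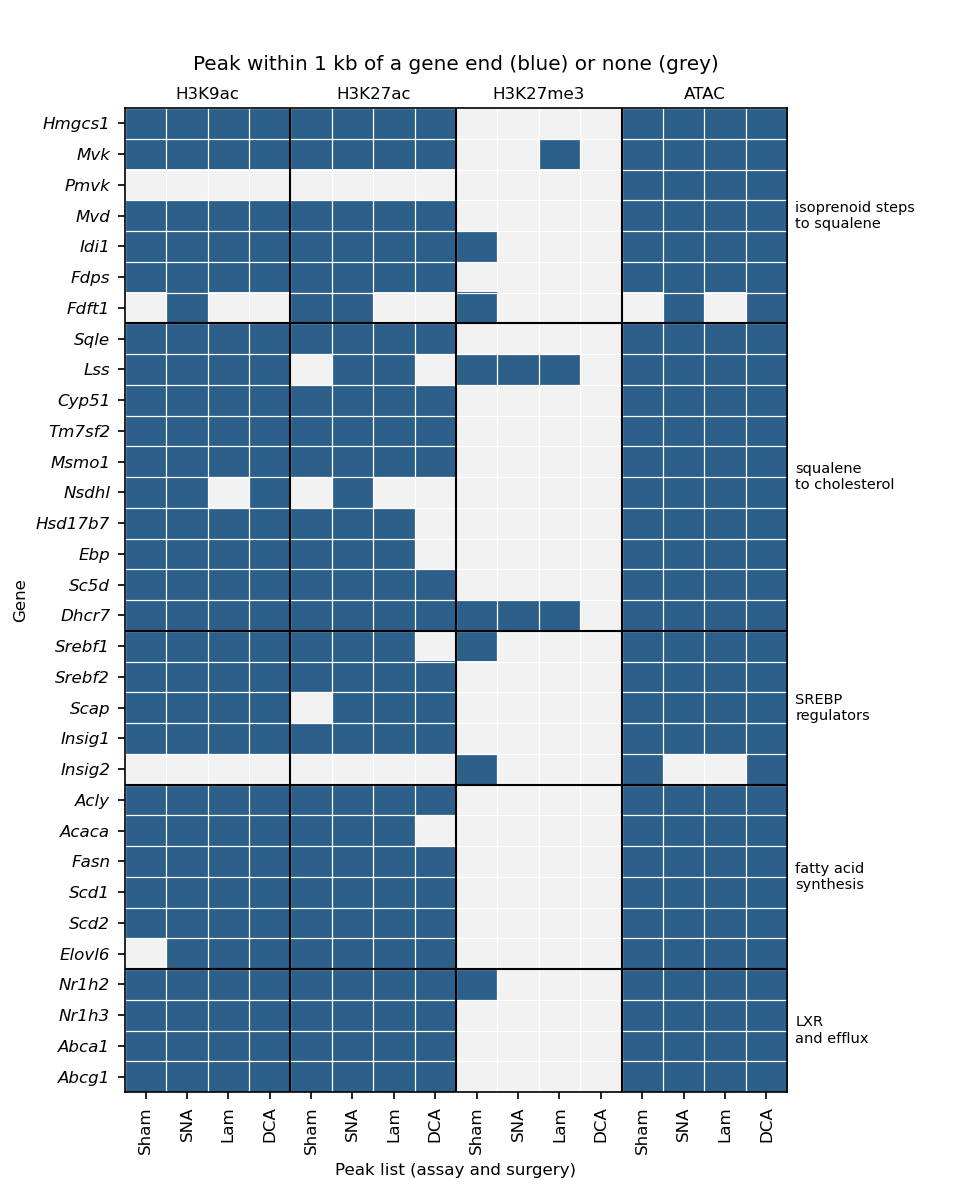
Presence of a peak within 1 kb of a gene end for each of the 32 genes (rows, by role group) in each of the 16 lists (columns, by assay and surgery), blue for present and grey for absent. The ATAC and H3K9ac columns hold 28 to 32 genes and the H3K27ac columns 23 to 30, while the H3K27me3 columns hold 7, 2, 3 and 0 genes.

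Among the isoprenoid genes, Hmgcs1, which makes HMG-CoA, had one of the strongest ATAC gene end peaks of any gene. Its −log10 p was 140.3, 222.7, 149.0 and 155.6, at percentile 99.2 or higher among the gene end peaks of its own list each time. A percentile here ranks a gene's strongest gene end peak among those of all genes in the same list. The −log10 p values are the authors', rank peaks within a list, and are not compared between lists. Idi1, the isomerase of the isoprenoid unit, was at 85.1, 139.5, 68.5 and 73.6, between percentiles 92.0 and 97.8. Mvk, mevalonate kinase, lay between percentiles 82.1 and 88.7 in the 4 lists. Mvd, the decarboxylase, lay between percentiles 55.9 and 76.3, and Fdps, farnesyl diphosphate synthase, between percentiles 68.5 and 90.9.

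Pmvk, phosphomevalonate kinase, and Fdft1, squalene synthase, had stronger peaks inside the gene than at their outermost ends. Pmvk had no H3K9ac or H3K27ac peak at a gene end in any list, and its ATAC gene end peak had −log10 p of 2.5, 10.7, 4.3 and 3.2. At a start that RefSeq places 5.03 kb inside the gene, Pmvk had an H3K27ac peak in every list, with −log10 p of 11.7, 23.5, 23.6 and 8.3, and H3K9ac peaks of 8.4, 6.4, 6.1 and 18.8. The ATAC peak at this inner start was weak too, at 10.1, 11.1, 5.8 and 10.5. The medians of all ATAC gene end peaks were higher, at 15.1, 20.2, 15.3 and 17.2. Fdft1 had ATAC gene end peaks in SNA (8.5) and DCA (3.2) and none in Sham or Lam. The strongest ATAC peak of its window lay 3.22 to 3.41 kb inside the gene in all 4 lists, with −log10 p of 102.0, 89.2, 70.4 and 82.3, above 99.3% or more of the peaks of each list. For both genes the outermost end missed a stronger site inside the gene, so their gene end calls concern the outermost end only.

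From squalene onward, all 10 genes had an ATAC gene end peak in all 4 lists, as did 30 of the 32 genes and 61.9% of all genes. The median percentile of the 10 among gene end peaks was 88.8, 89.6, 85.8 and 91.4, against 74.4, 76.3, 80.6 and 70.5 for the 32 genes. Msmo1, the methylsterol oxidase, was at −log10 p 162.9, 189.3, 109.9 and 131.5, and Hsd17b7, a ketosteroid reductase of the pathway, was at 134.9, 165.7, 106.8 and 164.5. Lss, which closes the sterol rings, was at 83.3, 121.2, 79.9 and 77.6, and lay at percentile 93.2 or higher in each list. Ebp, the sterol isomerase, was the weakest of the 10, at 9.9, 15.6, 6.1 and 9.5. Nsdhl, a sterol dehydrogenase, was at 20.5, 44.0, 11.9 and 25.6. Both lie on the X chromosome. Sqle, squalene epoxidase, and Dhcr7, the reductase of the last step, lay between percentiles 87.0 and 95.6 in the 4 lists. Cyp51 and Sc5d, the lanosterol demethylase and a sterol desaturase, lay between percentiles 81.4 and 89.5, and Tm7sf2, a sterol reductase, lay between percentiles 48.8 and 66.0.

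In these genes the acetylation peaks did not rank as high as the ATAC peaks. The median percentile of the squalene-to-cholesterol genes among H3K27ac gene end peaks was 40.6, 32.9, 38.4 and 35.0. For H3K9ac it was 41.6, 62.7, 50.4 and 28.0. The group's highest H3K9ac percentiles were 93.8 for Sc5d in DCA (−log10 p 31.9) and 91.3 for Dhcr7 in SNA (14.9). Hmgcs1 likewise was at percentile 85.7 for H3K9ac in Sham but at 5.9 in DCA, where its −log10 p was 6.1.

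Among the SREBP regulators, Insig1 had ATAC gene end peaks at −log10 p of 153.9, 177.1, 163.5 and 195.4, at percentile 99.1 or higher in each. Srebf2, the factor most tied to sterol genes, had ATAC peaks of 55.6, 55.9, 54.9 and 81.4 and H3K27ac gene end peaks of 13.8, 24.6, 27.8 and 11.7. Scap, the escort protein, had ATAC peaks of 32.6, 36.1, 21.5 and 38.8. Srebf1, the factor most tied to fatty acid genes, had weak ATAC peaks at its ends, at 5.9, 10.5, 8.0 and 10.2. Its strongest ATAC peak lay 11.05 to 11.19 kb inside the gene, at 23.6, 30.8, 26.4 and 30.0.

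Insig2, the relative of Insig1, had its peaks at an inner start. At its outermost ends it had no H3K9ac or H3K27ac peak in any list, and ATAC peaks in Sham (8.5) and DCA (7.8) only. At the start 4.64 kb inside the gene its H3K27ac peak had −log10 p of 47.5, 27.8, 61.8 and 11.4. That peak was above 97.3%, 99.6%, 99.6% and 80.1% of all peaks of its list. The ATAC peak at the same start was at 94.1, 89.6, 55.1 and 62.5, above 98.9% to 99.7% of its list, and the H3K9ac peak was at 8.0, 10.6, 19.7 and 26.9. For H3K27ac it ranked lowest in DCA, and it was present in all 4 lists. The inner starts of Insig2 and Pmvk, and the strongest window peaks of Fdft1, Srebf1 and Acaca, were looked up after their gene end values had been seen.

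Among the fatty acid genes, Acly, which makes cytosolic acetyl-CoA from citrate, had the strongest ATAC gene end peaks, at −log10 p of 84.8, 154.2, 134.4 and 117.8. Fasn, fatty acid synthase, was at 14.1, 35.5, 23.0 and 22.7 for ATAC, beside medians of all gene end peaks of 15.1, 20.2, 15.3 and 17.2. For H3K27ac it was at 12.2, 24.6, 22.5 and 29.2, beside medians of 9.5, 11.3, 12.4 and 9.2, up to percentile 97.8 in DCA. Scd2, a desaturase of nervous tissue, had H3K27ac gene end peaks of 16.3, 25.9, 20.7 and 14.8, between percentiles 85.4 and 96.7. Its relative Scd1 was at 16.7, 12.7, 12.0 and 6.4, from percentile 88.1 in Sham down to 19.3 in DCA. The group ranked high for H3K27ac in 3 lists, with a median percentile of 79.2 in Sham, 75.5 in SNA and 76.9 in Lam, and 24.0 in DCA over 5 genes. The LXR and efflux genes also ranked above the middle for H3K27ac, with median percentiles of 71.5, 64.6, 64.4 and 69.8.

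Acaca, acetyl-CoA carboxylase, and Elovl6, the elongase of long saturated chains, are long genes. The ATAC gene end peaks of Acaca were at −log10 p of 19.2, 35.3, 19.6 and 26.8, but the strongest ATAC peak of its window lay 49.40 to 49.56 kb inside the gene, at 78.7, 169.5, 124.2 and 90.3, above 99.5% or more of each list. The start that the promoter table gives for Acaca had no peak within 1 kb in any narrow list. Elovl6 had weak ATAC gene end peaks, at 6.8, 7.5, 9.5 and 5.4. Its H3K9ac gene end peak was absent in Sham and at 3.9 in SNA, 9.1 in Lam and 30.2 in DCA, where a single peak (chr3:129531792-129537180) ran over the start of the gene.

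The 4 LXR and efflux genes had peaks of all 3 narrow assays at their ends in every list. Nr1h3, LXR alpha, had H3K9ac peaks at −log10 p of 12.3, 7.1, 15.8 and 22.5, the strongest of the 32 genes in Sham and Lam. These were not all 1 site: the peak lay at the 5' end of Nr1h3 in Sham, SNA and Lam, and at its 3' end in DCA. Nr1h2, LXR beta, had ATAC peaks of 38.6, 58.0, 53.2 and 49.8, which lay beyond its 3' end. The strongest ATAC gene end peak of Nr1h3 also lay at its 3' end in all 4 lists. Of the 25 or 26 genes with a known strand and an ATAC gene end peak, 21 or 22 had the strongest one at the 5' end. Abca1 and Abcg1, which pass cholesterol to lipoproteins outside the cell, were lower, at 21.1, 22.7, 21.5 and 17.7 for Abca1 and at 7.8, 15.2, 7.5 and 15.4 for Abcg1.

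**Figure D2:**
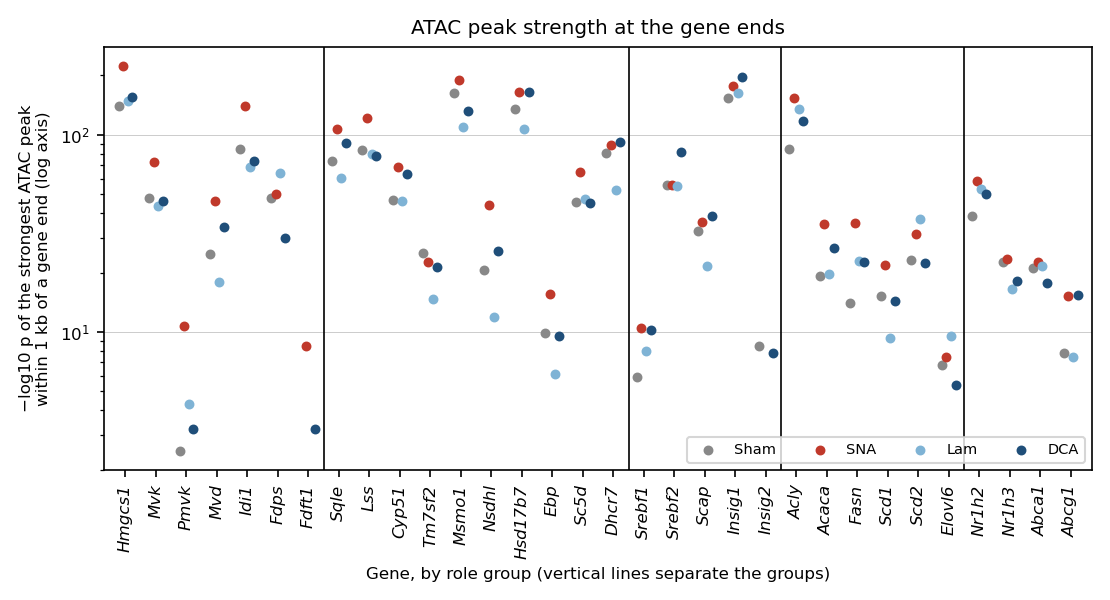
The −log10 p of the strongest ATAC peak within 1 kb of a gene end (log axis) for each gene, with 1 point for each surgery and no point where no peak was called. Hmgcs1, Msmo1, Hsd17b7 and Insig1 lie above 100 in all 4 lists, while Pmvk, Fdft1, Srebf1, Insig2 and Elovl6 lie at 10.7 or below in all lists where they have a point; heights of different surgeries are on the scales of different lists.

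The 3 strongest gene end peaks among the 32 genes differed by assay. For ATAC they belonged to Msmo1, Insig1 and Hmgcs1 in Sham and SNA, to Insig1, Hmgcs1 and Acly in Lam, and to Insig1, Hsd17b7 and Hmgcs1 in DCA. For H3K27ac they belonged to Acly, Scd1 and Scd2 in Sham, to Scd2, Fasn and Srebf2 in SNA and Lam, and to Fasn, Nr1h2 (17.9) and Scd2 in DCA. For H3K9ac they were Nr1h3, Hmgcs1 and Mvd (both 9.4, as was Insig1) in Sham and Dhcr7, Idi1 (13.9) and Scd2 (13.9) in SNA. In Lam they were Nr1h3, Acly (14.9) and Tm7sf2 (12.8), and in DCA Sc5d, Elovl6 and Acaca (22.8). The H3K9ac peaks of Mvd in Sham and of Tm7sf2 in Lam lay at the 3' end. Both genes have an end of another gene within 1 kb of an end of their own. Sterol step genes and Insig1 thus held 11 of the 12 ATAC places, and genes of fatty acid synthesis were most frequent for H3K27ac. The genes at or above the 90th percentile of ATAC gene end peaks in all 4 lists were 7 of 32: Hmgcs1, Idi1, Lss, Msmo1, Hsd17b7, Insig1 and Acly. Of all genes 4.61% did so, and of genes with an ATAC gene end peak in all 4 lists 7.45%. Of the 7 genes, 5 were among the 17 sterol synthesis genes, and none was an LXR or efflux gene. At or above the median in all 4 lists were 21 of the 32, against 28.3% of all genes and 45.7% of genes with an ATAC gene end peak in all 4.

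ATAC and acetylation peaks sat at different places around the start. Of the 26 genes with a RefSeq start in the promoter table, 25 had an ATAC peak within 1 kb of a start in each list, the exception being Acaca. Of the 17491 protein-coding genes in the table, 68.2%, 70.3%, 68.5% and 69.8% had such a peak. In the 25 genes the summit of the strongest one lay a median of 133, 106, 103 and 122 bp from the start. It lay within 250 bp for 19, 21, 20 and 20 genes. For H3K9ac the median distances were 466, 292, 445 and 429 bp, and for H3K27ac 538, 516, 386 and 412 bp. Summit distances were not measured over all genes, so what is usual for a promoter is not known here. Acetylation peaks overlapped the promoter window itself in 17, 18, 14 and 23 of the 26 genes for H3K9ac and in 14, 18, 18 and 11 for H3K27ac. As a share of genes with a peak near the start, the H3K9ac counts were 73.9%, 75.0%, 58.3% and 92.0%, against 68.8%, 66.0%, 69.4% and 91.0% of all protein-coding genes with one. For H3K27ac they were 63.6%, 72.0%, 75.0% and 52.4%, against 66.6%, 76.3%, 77.9% and 68.0%. These H3K27ac shares rest on 22, 25, 24 and 21 genes. They were near those of all genes in Sham, SNA and Lam, and lower in DCA.

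**Figure D3:**
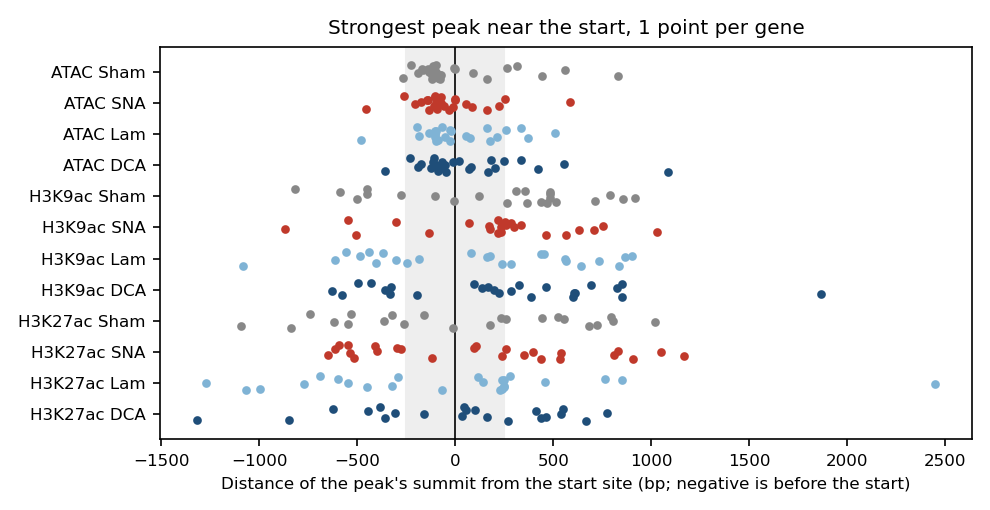
Distance of the summit of the strongest peak from the RefSeq start (horizontal axis, bp) for the 26 genes with a start in the table, 1 point for each gene and 1 row for each list, over 3 assays and 4 surgeries. ATAC summits crowd into the grey band within 250 bp of the start, and acetylation summits lie on both sides of it.

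H3K27me3 was sparse at these genes. Gene end peaks were found for 7 genes in Sham (Idi1, Fdft1, Lss, Dhcr7, Srebf1, Insig2 and Nr1h2), 2 in SNA (Lss and Dhcr7), 3 in Lam (Mvk, Lss and Dhcr7) and 0 in DCA. Over all genes the shares were 28.6%, 23.0%, 33.4% and 12.3%. The highest −log10 p at a gene end was 2.8, for Srebf1 in Sham, and no H3K27me3 peak in any window of the 32 genes had a q of 0.05 or less. No gene had such a peak in all 4 lists, against 5.30% of all genes, and 24 had it in none, against 50.9%. In SNA against Sham 0 genes gained and 5 lost an H3K27me3 gene end peak (all genes 9.0% and 14.6%), in DCA against Lam 0 and 3 (3.48% and 24.6%), and in Lam against Sham 1 and 5 (14.7% and 9.89%). Of the 7 genes with one in Sham, 5 lacked it both in SNA and in the other control, Lam. Over windows of the gene body and 10 kb on either side, H3K27me3 peaks numbered 54, 28, 73 and 11, with SNA/Sham at 0.52 (all genes 1.05) and DCA/Lam at 0.15 (all genes 0.46). With lists cut to equal sizes these ratios were 0.45 and 0.25, against 0.92 and 0.79 over all genes. A low DCA/Lam ratio was not particular to the 32 genes. In the full lists it was 0.16 for the 23 other pathway genes described below. Among the marker sets it was 0.08 for fibroblasts and vessels, 0.14 for glia, 0.17 for adipocytes and 0.19 for sensory neurons. Skeletal muscle (0.44) and macrophage (0.59) markers were nearer to all genes. SNA/Sham was 0.76 for the other pathway genes and 0.7 to 1.7 in the marker sets.

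Between SNA and Sham, 5 acetylation peaks were gained at the gene ends of the 32 genes, beside 1 ATAC gain, 1 ATAC loss and the 5 H3K27me3 losses given above. A gene is counted as gained where it had a gene end peak in SNA and none in Sham, and as lost in the reverse case. For H3K9ac 2 genes gained, Fdft1 (−log10 p 4.9) and Elovl6 (3.9), and 0 lost, against 5.44% and 3.86% of all genes. Only 4 of the 32 lacked the peak in Sham, so these were 2 of 4, against 10.7% of all genes that lacked it. For H3K27ac 3 gained, Lss (7.1), Nsdhl (5.2) and Scap (7.5), and 0 lost, against 13.5% and 2.83% of all genes. These were 3 of the 5 that lacked it in Sham, against 22.5% of all genes that lacked it. For ATAC 1 gained, Fdft1, and 1 lost, Insig2, against 5.51% and 3.75%, both at outer ends away from the main site. With lists cut to equal sizes H3K27ac gained 2 (Lss and Scap) and lost 3 (Fdft1, Tm7sf2 and Srebf1), and H3K9ac gained Fdft1 and lost Acaca. Lss and Scap also gained an H3K27ac end peak in Lam against Sham, so this difference was also present between the 2 control surgeries.

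In the windows, the SNA lists held more H3K9ac and H3K27ac peaks than the Sham lists for most of the 32 genes, as they did for genes at large, and more ATAC peaks for 16 of the 32. H3K9ac peaks numbered 292 in SNA and 197 in Sham, a ratio of 1.48 (all genes 1.41), with more in 23 genes and fewer in 4, against 57.5% and 16.8% of all genes with a peak in either list. H3K27ac peaks numbered 300 and 152, a ratio of 1.97 (all genes 1.71), with more in 24 and fewer in 4, against 63.9% and 18.6%. ATAC peaks numbered 266 and 223, a ratio of 1.19 (all genes 1.16), with more in 16 and fewer in 12, against 53.3% and 27.4%. With the lists cut to equal numbers of their strongest peaks the ratios were 1.03 for H3K9ac, 1.14 for H3K27ac and 1.08 for ATAC, against 0.97, 1.05 and 1.03 over all genes. At equal sizes most of the excess was gone. The H3K27ac Sham list, with its low share of strong peaks at gene ends, is one side of this comparison, and the part of that in the result was not tested.

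SREBP regulators had the highest SNA/Sham ratio for H3K27ac, 64 peaks against 24 (2.67), led by Srebf2 with 29 against 10 and Srebf1 with 18 against 7. With equal list sizes the group stood at 30 and 24, a smaller ratio than that of the squalene-to-cholesterol genes (26 and 19), so the rank holds for the full lists only. Srebf2 then stood at 13 and 10, and Srebf1 at 7 and 7. Sterol synthesis genes had 80 against 40 H3K27ac peaks, and fatty acid genes 112 against 62, of which Elovl6 alone made up 51 and 23. Elovl6 had the largest difference of the 32 for both acetylation marks, also with 39 against 20 for H3K9ac. Of all genes with a peak in either list, 0.765% had an excess at least as large for H3K27ac and 0.830% for H3K9ac. These shares take no account of gene length: Elovl6 is 106.1 kb long, and the median gene is 17.2 kb. With equal list sizes Elovl6 stood at 26 and 23 for H3K27ac and at 25 and 20 for H3K9ac. The largest differences in the other direction were Fasn for H3K9ac (7 against 10) and Nr1h2 for H3K27ac (2 against 5). Hmgcs1 had 12 against 4 H3K9ac peaks and 12 against 2 H3K27ac peaks, and 7 against 4 and 3 against 2 with equal list sizes.

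Abca1 was the gene whose ATAC count differed most between SNA and Sham. Its window held 12, 31, 17 and 22 ATAC peaks, with SNA highest and both injury lists above their controls. Of the 31 SNA peaks, 28 overlapped the 129.2 kb gene body, 8 overlapped a Sham peak and 23 did not. Of all SNA ATAC peaks 59.6% overlapped no Sham peak, and of those in any gene window 56.9%. The 23 were weak, with a median −log10 p of 4.3. An SNA-over-Sham difference of 19 or more was found for 83 of 19196 genes (0.432%), a share that takes no account of gene length. The counts were 26 against 12 with equal list sizes, 28 against 10 with a q of 0.05 or less, and 6 against 2 for peaks whose −log10 q reached 5. In DCA against Lam these counts were 22 against 17, 22 against 16 and 6 against 2. Abca1 also had more H3K9ac peaks in SNA (28 against 18) and more H3K27ac peaks (28 against 12), which came to 17 against 18 and 15 against 12 with equal list sizes. The LXR and efflux group, Abca1 included, had 64 ATAC peaks in SNA and 37 in Sham (1.73), against 1.16 over all genes. With equal list sizes it had 52 against 37. Abca1 alone made up 31 of the 64 and 12 of the 37. Nr1h3 had 11 against 5, Abcg1 16 against 14 and Nr1h2 6 against 6. Mvk (5 against 9) and Scap (8 against 12) had the largest ATAC differences in the other direction.

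**Figure D4:**
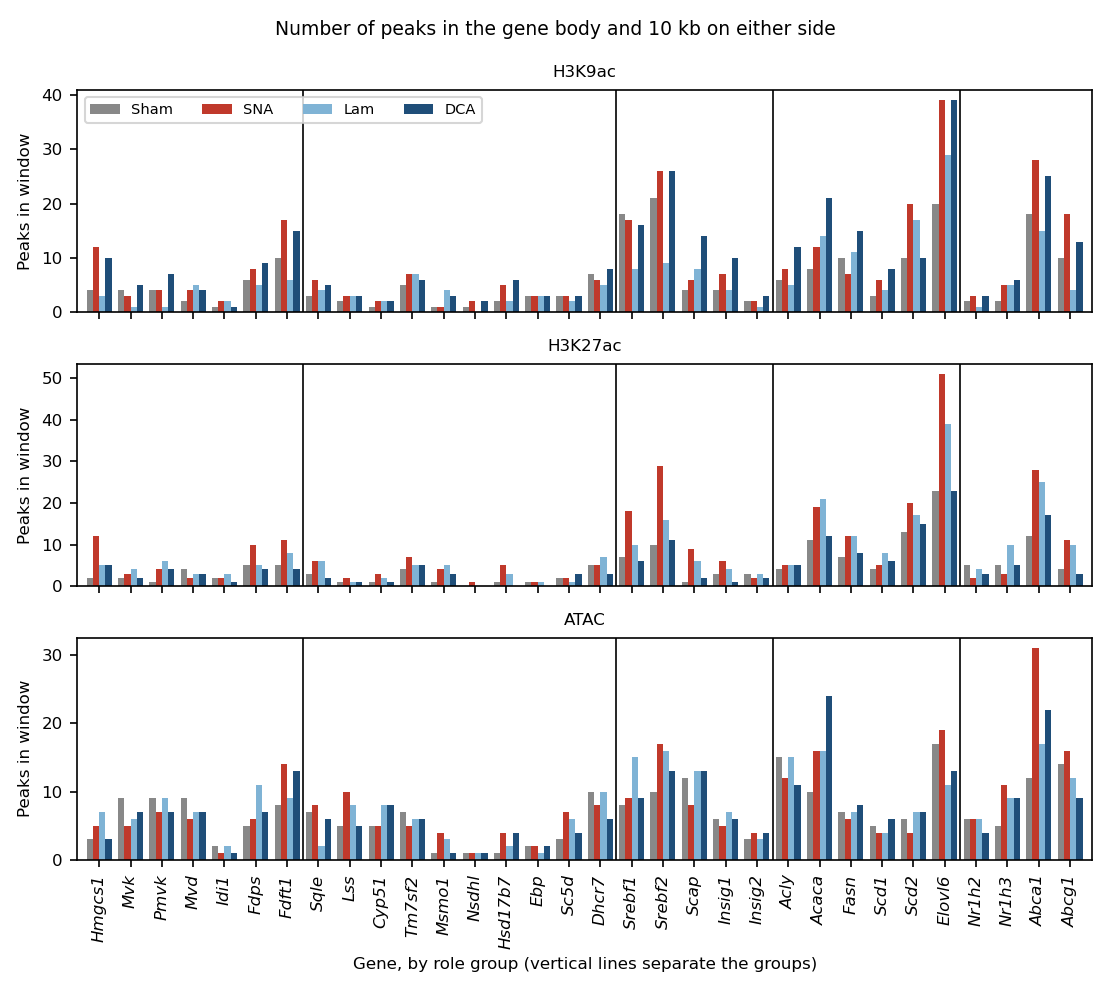
Number of peaks in the gene body and 10 kb on either side (vertical axis) for each of the 32 genes in the 4 surgery lists (bar colours), for H3K9ac, H3K27ac and ATAC. Elovl6 has the most acetylation peaks, up to 51 in the H3K27ac SNA list, and Abca1 the most ATAC peaks, 31 in SNA.

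DCA against Lam, the second injury comparison, gave H3K9ac and H3K27ac in opposite directions. At gene ends, H3K9ac gained 1 gene, Nsdhl (−log10 p 6.8), and lost 0, against 10.2% and 0.594% of all genes. H3K27ac gained 0 and lost 5, namely Lss, Hsd17b7, Ebp, Srebf1 and Acaca, against 2.39% and 10.6% of all genes. Among genes with the peak in Lam these losses were 5 of 28, against 20.8% of all such genes, a share near that of genes at large. The DCA list, with 21.8% of its strongest peaks at gene ends against 38.6% in Lam, is one side of this comparison, and the part of that in the result was not tested. In Lam the strongest gene end peaks of those 5 genes had −log10 p of 10.7, 11.6, 6.0, 7.6 and 6.8. For Hsd17b7 (11.6) it lay at the 3' end of the gene. With equal list sizes Lss, Hsd17b7, Srebf1 and Acaca still lost theirs, and Sqle gained one, while H3K9ac gained Nsdhl and lost Hmgcs1. ATAC gained 2, Fdft1 and Insig2, and lost 0, against 4.96% and 3.82%.

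The windows showed the same split. H3K9ac peaks numbered 313 in DCA and 190 in Lam, a ratio of 1.65 (all genes 1.69), with more in 24 genes and fewer in 5, against 67.7% and 12.3%. H3K27ac peaks numbered 160 and 255, a ratio of 0.63 (all genes 0.71), with more in 1 gene, Sc5d (3 against 1), and fewer in 25, against 17.9% and 57.8%. ATAC peaks numbered 246 and 256, a ratio of 0.96 (all genes 0.998), with more in 11 and fewer in 14, against 40.4% and 39.8%. With equal list sizes the ratios were 0.97 for H3K9ac, 0.95 for H3K27ac and 0.92 for ATAC, against 1.01, 1.01 and 0.96 over all genes. The full lists, in the order DCA and Lam, held 89647 and 50667 H3K9ac peaks and 46489 and 67311 H3K27ac peaks.

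Within this comparison, SREBP regulators had the highest ratio of H3K9ac peaks, 69 in DCA against 30 in Lam (2.3), with Srebf2 at 26 against 9. Srebf2 also had only 9 in Lam against 21 in Sham, so that DCA and Sham (26 and 21) were closer than DCA and Lam. With equal list sizes the group stood at 37 and 30. Scd2 had fewer H3K9ac peaks in DCA than in Lam, 10 against 17, while the DCA list was the longer one, and a deficit at least as large was found for 5 of 15392 genes (0.0325%). Its counts were 9 and 17 with equal list sizes and 10 and 17 with a q of 0.05 or less, but 9 and 1 for peaks whose −log10 q reached 5, the opposite direction. Elovl6 had the largest fall in H3K27ac peaks, 23 against 39, which came to 22 and 21 with equal list sizes. Acaca had the largest ATAC excess, 24 against 16, and 23 against 16 with equal list sizes, but 2 against 3 for peaks whose −log10 q reached 5. Srebf1 had the largest ATAC deficit, 9 against 15, and 8 against 15 with equal list sizes, but 4 against 3 for peaks whose −log10 q reached 5, the opposite direction.

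The 2 control surgeries also gave different lists. Lam against Sham shares its control lists with both, so the 3 comparisons are not independent. At gene ends, H3K9ac gained 1 (Elovl6) and lost 1 (Nsdhl), against 5.36% and 4.70% of all genes. H3K27ac gained 2 (Lss and Scap) and lost 1 (Fdft1), against 13.0% and 2.38%, and ATAC gained 0 and lost 1 (Insig2), against 4.76% and 4.67%. In the windows, H3K9ac peaks numbered 190 in Lam and 197 in Sham (ratio 0.96, all genes 0.99), with more in 14 genes and fewer in 15, against 37.6% and 34.3%. H3K27ac peaks numbered 255 and 152 (1.68, all genes 1.53), with more in 24 and fewer in 3, against 61.1% and 16.3%. ATAC peaks numbered 256 and 223 (1.15, all genes 1.09), with more in 16 and fewer in 8, against 47.4% and 33.6%. The Lam excess of 103 H3K27ac peaks over Sham, both control surgeries, stood beside an SNA excess of 148 over the same Sham list. The farthest single genes were Elovl6 (9 more H3K9ac and 16 more H3K27ac peaks, 6 fewer ATAC peaks), Srebf2 (12 fewer H3K9ac peaks) and Srebf1 (7 more ATAC peaks). For H3K27ac the largest deficit was 1 peak, in Sc5d, Nr1h2 and Mvd.

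**Figure D5:**
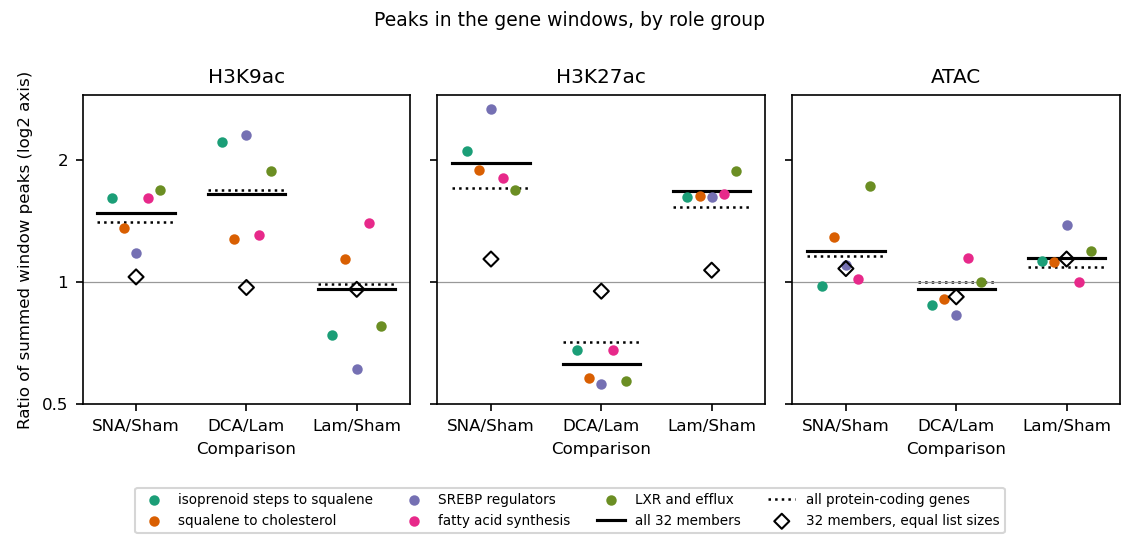
Ratio of summed window peaks (log2 axis) in SNA/Sham, DCA/Lam and Lam/Sham for H3K9ac, H3K27ac and ATAC: coloured points are the 5 role groups, solid lines all 32 genes, dotted lines all protein-coding genes, and open diamonds the 32 genes with lists cut to equal sizes. The solid lines lie on the same side of 1 as the dotted ones (0.96 and 0.998 for ATAC in DCA/Lam), and the diamonds lie between 0.92 and 1.14.

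Other genes of the pathway, 23 listed by their role and including Acat2, Stard4, Acss2, Fads1 and Fads2, were counted in the same way. Gene end peaks were found for 21 or 22 of them in the ATAC lists, 18 to 22 in the H3K9ac lists and 14 to 22 in the H3K27ac lists. The shares of all genes were 69.4% to 71.2%, 49.0% to 59.3% and 40.3% to 50.9%. For H3K27ac, 6 of the 23 gained a gene end peak in SNA against Sham (Lbr, Soat1, Mbtps2, Acss2, Mid1ip1 and Thrsp) and 0 lost one. In DCA against Lam 0 gained and 5 lost an H3K27ac end peak (Acat2, Soat1, Cyp27a1, Mbtps1 and Acss2). Of all genes, 13.5% gained and 2.83% lost one in the first comparison, and 2.39% and 10.6% in the second. The H3K27ac window ratios of the 23 genes were 2.3 in SNA/Sham and 0.62 in DCA/Lam. Those of the 32 genes were 1.97 and 0.63, and those of all genes 1.71 and 0.71. Acss2, which makes acetyl-CoA from acetate, and Soat1, which esterifies cholesterol, were among both the gains and the losses and also gained the peak in Lam against Sham.

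The windows of the 8 satellite glia and Schwann cell markers held 35, 87, 63 and 42 H3K27ac peaks, the same order of lists as for the 32 genes and as for all genes, whose windows held 47969, 82094, 73619 and 52632. The 8 sensory neuron markers held 7, 10, 10 and 11, and the 6 macrophage markers 6, 5, 5 and 6, with no H3K27ac gene end peak at a macrophage marker in any list. The 5 adipocyte markers, of a cell type rich in these enzymes, held 9, 10, 10 and 7. The 4 markers of fibroblasts and vessels held 13, 25, 25 and 15, and the 3 of skeletal muscle 0, 0, 1 and 1. The part of these cell types in the results for the 32 genes was not tested.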

How the data were processed

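H3K9ac, H3K27ac and H3K27me3 ChIP-seq and ATAC-seq of mouse dorsal root ganglia gave 16 deposited peak lists, 1 for each assay and surgery, made by the authors from pooled replicates per the labels' series text. The deposited lists give each peak a fold enrichment (a ratio) and a −log10 p and −log10 q, all the authors' values. Coordinates are mm10 per the submitters' processing notes, and the aligner and peak caller are not given in the sources used here. Read depth is unknown, so no interval could be given.

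Where an ATAC list repeated an interval, only its line with the largest −log10 p was kept. Peaks were counted where they overlapped a RefSeq GRCm38.p6 gene and 10 kb on either side by at least 1 bp, and within 1 kb of either gene end. With 1 pooled list per group no test was run. Python 3.11.15, pandas 2.3.3, numpy 2.4.6 and matplotlib 3.10.9 were used, and the counting was tested on simulated peaks.

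The genes and lists were chosen with earlier results of these data known. Named with values are genes whose end peak was in some but not all 4 lists of a narrow assay or in none, the 3 strongest per list, and the largest window differences. Alternatives were a q of 0.05 or less, a −log10 q of at least 5, lists cut to equal sizes, flanks of 5 and 25 kb, gene end distances of 0.5 and 2.5 kb, promoter table starts only, peak centres, uncollapsed ATAC lines, and gene subsets. Promoter sequences and starts come from RefSeq GRCm38.p6, which held 26 of the 32 genes. One gene of the list of other pathway genes is not reported here.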

Additional observations from a re-analysis of the deposited data

Results flagged for a closer look

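Under axotomy and its own control surgery, the 32 genes' H3K27ac window peaks differed in opposite directions in the 2 injuries: SNA had a net 148 more than Sham, and DCA a net -95 against Lam. For ATAC the same counts were 43 and -10. These were picked out because the 2 comparisons point opposite ways, and the difference between them was not tested, since each list pools its replicates. Over all genes the H3K27ac ratios were 1.71 and 0.71, in the same 2 directions.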

How the results depend on the processing

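Values are net window peaks of the 32 genes, first list minus second, in the order SNA/Sham, DCA/Lam and Lam/Sham. As reported they were 95, 123 and -7 for H3K9ac, 148, -95 and 103 for H3K27ac, -26, -62 and 19 for H3K27me3, and 43, -10 and 33 for ATAC. With lists cut to equal sizes, H3K9ac gave 6 and -5 (a reversal) in the first 2, H3K27ac 22, -8 and 11, H3K27me3 -33 in DCA/Lam and 2 in Lam/Sham, and ATAC 17 and -20 in the first 2. With a q of 0.05 or less, H3K9ac gave 155 in SNA/Sham and 46 in Lam/Sham (a reversal), H3K27me3 0 in all 3, and ATAC 14 in DCA/Lam (a reversal). With a −log10 q of at least 5, H3K9ac gave 24 in SNA/Sham and 17 in Lam/Sham (a reversal), H3K27ac 27, -58 and 47, H3K27me3 0 in all 3, and ATAC 21, 8 (a reversal) and 0. A 5 kb flank gave -11 for H3K9ac in Lam/Sham, -41 and 9 for H3K27me3 in DCA/Lam and Lam/Sham, and 0 for ATAC in DCA/Lam. A 25 kb flank gave -4 for H3K9ac in Lam/Sham, -129 and 48 for H3K27me3 in DCA/Lam and Lam/Sham, and 86 and 51 for ATAC in SNA/Sham and Lam/Sham. Counting every ATAC line gave -6 in DCA/Lam and 67 in Lam/Sham. Leaving out Elovl6, chosen after seeing the data, gave -16 for H3K9ac in Lam/Sham.

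A further alternative, also chosen after seeing the data, kept only the 7 genes with no other protein-coding gene in the window, so its counts are smaller by construction. It gave 36, 15 and 16 (a reversal) for H3K9ac, 38, -24 and 25 for H3K27ac, -2, -13 and 7 for H3K27me3, and 2, 1 (a reversal) and -2 (a reversal) for ATAC. Apart from smaller gene sets and shorter lists, the cause of these moves was not tested. Of the net counts under all alternatives, 61 were unmoved, 42 moved and 8 reversed. The unmoved counts include 12 from leaving out genes whose windows overlap that of another listed gene. No windows overlapped in this way, so that alternative removed no gene and could not move a count. Unmoved does not mean identical: ATAC in SNA/Sham was 43 as reported and 63 with every ATAC line, and was called unmoved. Of the gene end counts, 78 were unmoved and 18 moved. No paired analysis was possible because the lists pool the replicates, and leaving out a replicate could not be run for the same reason. The lists hold no read totals, so a weak or missing peak cannot be told apart from low depth.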
